A study of Homo sapiens with 8 samples.

Results

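SR proteins and heterogeneous nuclear ribonucleoproteins (hnRNPs) are the main families of RNA-binding proteins that choose which splice sites of a pre-mRNA are used. SR proteins carry a domain rich in arginine and serine, bind exonic enhancers and recruit the spliceosome, whereas many hnRNPs bind silencers and often oppose them. Cytoplasmic SRPK kinases phosphorylate the arginine-serine domain, which lets SR proteins enter the nucleus, and nuclear CLK kinases phosphorylate it further and release SR proteins from nuclear speckles. Genes were picked by symbol, as every SRSF, TRA2, HNRNP, SRPK and CLK gene of the deposited table that is not named as a pseudogene. These families were chosen with earlier results of these data known. This gave 41 of 16782 genes, namely 14 of the SR family (SRSF1 to SRSF12, TRA2A and TRA2B), 21 of the hnRNP family, and 6 kinases (SRPK1, SRPK2 and CLK1 to CLK4).

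The cells were CAKI1, a cell line established from a human renal carcinoma. All cells were serum starved for 24 h. The 4 samples of the hLcn-2 group then received iron-loaded (holo) lipocalin-2 at 5 µg/mL for 24 h, and the 4 control samples did not. Libraries were made with the QuantSeq 3′ kit and unique molecular identifiers (UMI), so a read stands for the 3′ end of one RNA molecule. Levels are therefore given as normalized counts on the scale of CPM (reads of a gene per library of a common size), and were not divided by transcript length. The titles number the samples 1 to 4 in each group, without saying what a number stands for.

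Depth ran from 1501563 to 13953090 reads per library, a ratio of 9.29. Of 11 listed epithelial and renal carcinoma markers, 9 had values, and all 9 averaged above 10 normalized counts. The fibroblast markers COL1A1 and PDGFRB lay between 2.47 and 6.58 and between 0 and 1.83 normalized counts per sample. Same-numbered control and hLcn-2 samples deviated together from their group means, with correlations across genes between 0.31 and 0.61. Both samples numbered 3 stood apart from the others for many of the genes described here. RNR2, the mitochondrial ribosomal RNA, made up 6.22% of the summed signal of control 3 and 7.10% of that of hLcn-2 3, against 3.31% to 4.37% in the other 6 samples.

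SRSF8 was the gene of these families that differed most clearly between the groups. It is an intronless relative of SRSF2, a splicing activator and a component of nuclear speckles. GENCODE 44 places SRSF8 (ENSG00000263465) at chr11:95066919-95071225 on the plus strand of GRCh38, in 1 exon with a coding region of 849 nt. SRSF2 (ENSG00000161547) lies at chr17:76734115-76737333 on the minus strand and has 3 exons. Among the other SR genes, SRSF2 was the one with the highest share of identical coding bases, 557 of 657 aligned bases or 84.8%. The first 150 coding bases of both genes are shown 5′ to 3′ because they show how near these 2 genes are, with the 15 bases that differ in capitals.
SRSF8: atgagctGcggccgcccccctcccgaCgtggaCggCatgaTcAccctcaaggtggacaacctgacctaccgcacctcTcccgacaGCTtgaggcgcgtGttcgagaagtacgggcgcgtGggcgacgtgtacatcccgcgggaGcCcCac
SRSF2: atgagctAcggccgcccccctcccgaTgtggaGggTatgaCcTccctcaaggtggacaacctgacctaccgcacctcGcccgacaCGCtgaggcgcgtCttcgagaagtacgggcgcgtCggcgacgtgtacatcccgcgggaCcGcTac

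The library reads the other end of the RNA. Over the last 500 nt of the 2 transcripts, the best local match between SRSF8 and SRSF2 was 14 identical bases in a stretch of 17. No other annotated exon overlapped the last 500 nt of SRSF8, and no other place in the genome matched 75 nt or more of it at 90% identity.

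SRSF8 was measured at 48.3, 44.6, 56.8 and 55.3 normalized counts in controls 1 to 4, and at 76.0, 60.3, 83.9 and 73.9 in hLcn-2 samples 1 to 4. The lowest hLcn-2 sample lay above the highest control, and the hLcn-2 sample was the higher one in each of the 4 same-numbered pairs. These values rest on between 84 and 853 reads per library. The mean was 51.2 ± 5.78 without and 73.5 ± 9.82 with hLcn-2 (SD, n = 4 each), a difference of 0.51 (standard error 0.15) or 1.42-fold on the log2(normalized count + 1) scale. In bulk RNA, more SRSF8 RNA in every cell and more cells with much of it cannot be told apart.

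Two-sided limma on log2(normalized count + 1) was fitted over all 15593 genes that passed the filter, with Benjamini-Hochberg adjustment, and a gene was called at an adjusted p under 0.05. Without the replicate number in the model, the adjusted p for SRSF8 was 1.0, although its unadjusted p was 0.00499 and its 95% interval ran from 1.14-fold to 1.78-fold. With the replicate number as a block, the adjusted p was 0.0420 and the interval 1.24-fold to 1.63-fold. The quasi-likelihood test of edgeR and the Wald test of DESeq2, run with the block on reads recovered from the deposited values, gave adjusted p-values of 0.0075 and 0.0040. An exact permutation test of SRSF8 gave an unadjusted p of 0.0286, the smallest that the 70 regroupings of 4 against 4 samples allow, which groups without overlap always reach. The call was not held by every subset. Limma with the block lost it without the samples numbered 1, 2 or 3 (adjusted p = 0.147, 0.201 and 0.170) and with a pseudocount of 0.1 (0.0744) or no intensity trend (0.443). EdgeR with the block lost it without the samples numbered 1 (0.0609) or 2 (0.0502).

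SRSF2 itself was measured at 332, 302, 232 and 387 normalized counts in controls and at 363, 350, 206 and 352 in hLcn-2 samples. Its log2 fold change was 0.0068 (standard error 0.21), and the 95% interval with the block ran from 0.887-fold to 1.14-fold. The 1.42-fold estimate of SRSF8 lay above that interval, although the difference between the 2 genes was not tested.

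**Figure D1:**
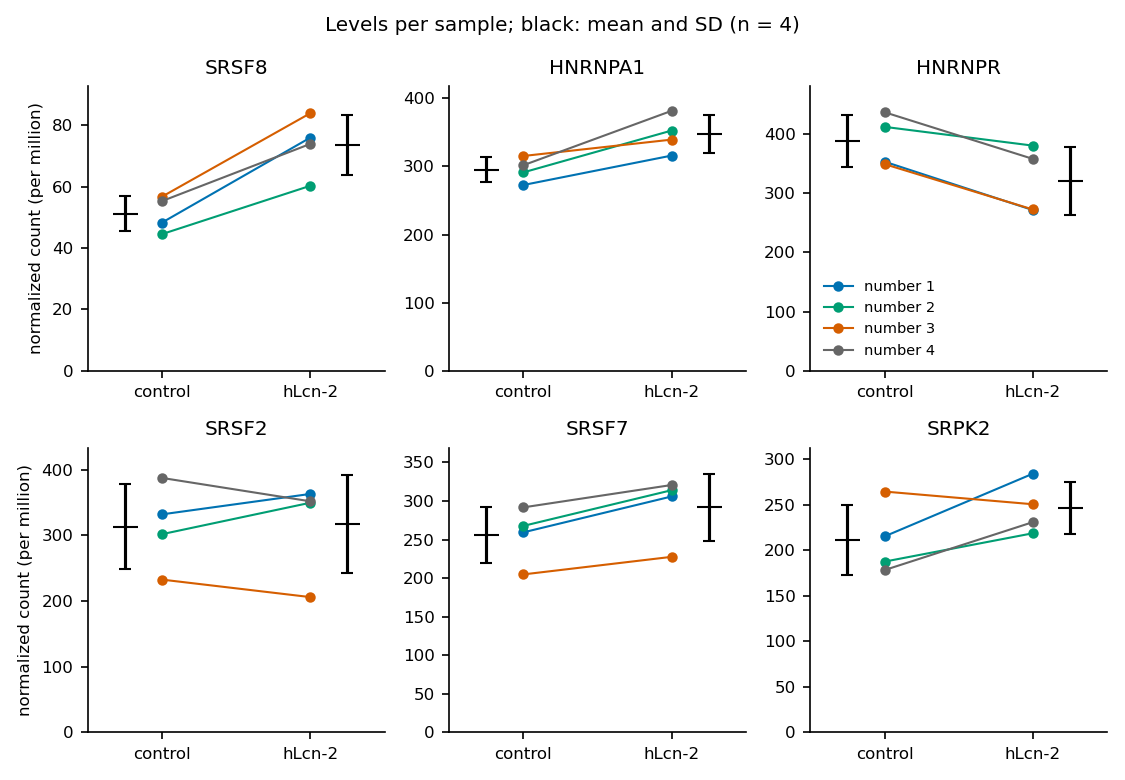
Normalized counts (CPM) of 6 genes in 4 control and 4 hLcn-2-treated samples, with lines joining samples of the same number and black bars for the mean and SD. SRSF8 and HNRNPA1 show no overlap between groups, HNRNPR is lower in every pair, and SRSF2 and SRSF7 show both samples numbered 3 below the others.

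Of the 41 genes, all of which passed the expression filter, limma without the block called 0, as it called 0% of all genes tested. At an unadjusted p of 0.05 or less it gave 1 (SRSF8), against 2.28% of all genes. EdgeR without the block likewise called 0 and had SRSF8 alone at an unadjusted p of 0.05 or less. With the block, limma called SRSF8 and no other of the 41, against a background of 0.282% of genes. The tools run with the block on recovered reads called the same single gene, against 1.49% of all genes in edgeR and 1.11% in DESeq2.

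Below that threshold, 9 of the 41 genes (22.0%) had an unadjusted p of 0.05 or less in limma with the block, where 12.2% of all genes did. Of these, 8 were higher with hLcn-2 (SRSF3, SRSF4, SRSF7, SRSF8, HNRNPA1, HNRNPA3, HNRNPH3 and SRPK2), against 6.65% of all genes, and 1 was lower (HNRNPR), against 5.53%. Apart from SRSF8, none of these passed the adjustment, so they are given as values and not as changes. In all 4 pairs, 9 of the 41 genes were higher with hLcn-2 (9.93% of all genes were) and 2 were lower (10.9% of all genes). The log2 fold change was above 0 for 28 of the 41 genes and below 0 for 13, whereas 50.2% of all genes were above 0. With each column scaled to its own total, the split was 21 above and 20 below, and 44.4% of all genes were above 0. With median-of-ratios size factors it was 29 and 12, and 50.3% of all genes were above 0. On recovered reads without the block it was 33 and 8 in edgeR (50.8% of all genes above 0) and 31 and 10 in DESeq2 (49.2%). The genes share samples and their levels moved together between replicate numbers, so these counts are descriptions.

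**Figure D2:**
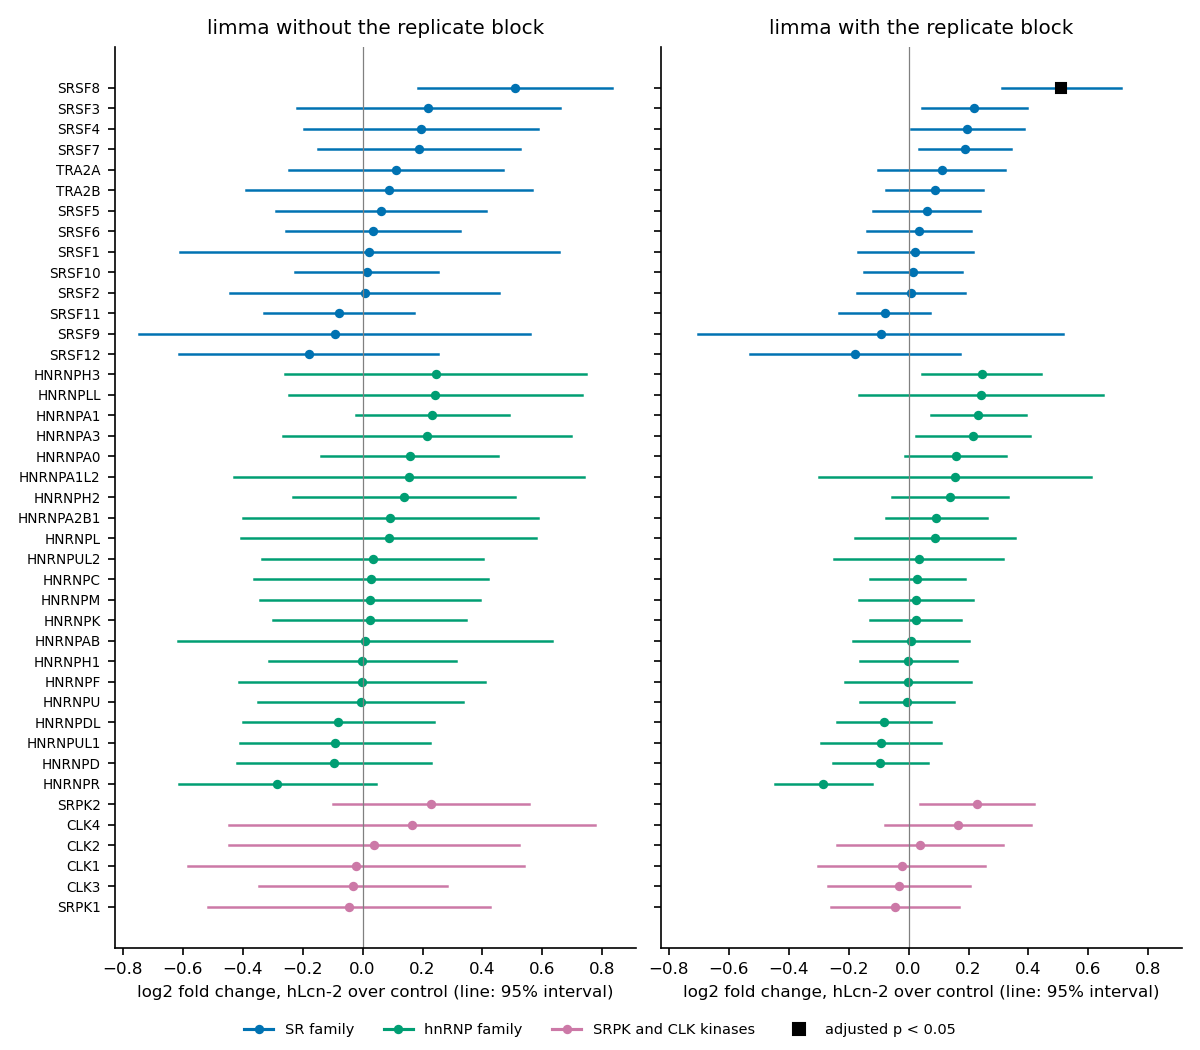
Log2 fold change of hLcn-2 over control for all 41 genes with 95% intervals, from limma without (left) and with (right) the replicate number as a block. SRSF8 is the one gene with an adjusted p under 0.05, at 0.0420 with the block, and the intervals of all 41 genes are narrower with the block.

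Within the SR family, SRSF7 and SRSF3 stood next to SRSF8 in being higher in all 4 pairs. Both also act as adaptors for mRNA export. SRSF7 (chr2:38743599-38751494, minus strand) was measured at 259, 268, 205 and 292 normalized counts in controls and at 306, 314, 228 and 321 in hLcn-2 samples. The groups overlapped, because each sample numbered 3 was the lowest of its group. Its log2 fold change was 0.19 (standard error 0.15), and limma gave adjusted p-values of 1.0 without and 0.307 with the block.

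SRSF3 read 316, 321, 217 and 323 in controls and 427, 397, 232 and 334 in hLcn-2 samples. Its differences within pairs fell from 0.43 and 0.31 on the log2 scale for numbers 1 and 2 to 0.094 and 0.049 for numbers 3 and 4. The log2 fold change was 0.22 (standard error 0.20), with an adjusted p of 0.301 in limma with the block.

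SRSF11, an SR-related protein, had the highest mean of the SR family, at 496 ± 19.6 normalized counts without and 470 ± 34.2 with hLcn-2. Controls 1 to 4 read 479, 482, 521 and 500, and hLcn-2 samples 1 to 4 read 445, 437, 489 and 508. The hLcn-2 sample was the lower one in 3 pairs, and the log2 fold change was -0.080 (standard error 0.11). SRSF10, which represses splicing when it loses its phosphates, varied least between replicate numbers, by 0.076 on the log2 scale, with means of 178 ± 1.33 in controls and 180 ± 9.90 with hLcn-2.

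SRSF1, the founding member of the family and a general splicing activator, had means of 131 ± 47.5 and 133 ± 47.9, so its spread between samples was far larger than the difference between groups. TRA2A and TRA2B, which bind purine-rich exonic enhancers, had log2 fold changes of 0.11 (standard error 0.16) and 0.087 (0.22). SRSF5 and SRSF6 lay at 0.060 and 0.035, and SRSF4, one of the longest SR proteins, at 0.20 with an adjusted p of 0.396 in limma with the block. The 2 lowest members, SRSF12 with 10.3 and SRSF9 with 4.28 normalized counts over all 8 samples, had log2 fold changes of -0.18 and -0.093. SRSF9 rested on only 4 reads in hLcn-2 3 and 6 in control 4, and 98.2% of its last 500 nt is overlapped on the opposite strand by GATC (mean 27.2 normalized counts). Whether reads were counted by strand is not given in the sources used here.

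HNRNPA1, an abundant splicing repressor, was the one hnRNP gene whose groups did not overlap. It lies at chr12:54280193-54287088 on the plus strand. Controls 1 to 4 read 273, 291, 315 and 302 normalized counts and hLcn-2 samples 1 to 4 read 316, 352, 339 and 381. All 4 hLcn-2 samples were above all 4 controls, but hLcn-2 1 exceeded control 3 by less than 1 normalized count. Means were 295 ± 18.0 and 347 ± 27.4, which differed by 0.23 (standard error 0.12) on the log2 scale. Limma gave adjusted p-values of 1.0 without and 0.219 with the block, so HNRNPA1 was not called. With SRSF8, 2 of the 41 genes were higher without overlap, or 4.88%, against 0.891% of all genes tested. None was lower without overlap, against 0.988%.

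Most of the close relatives of HNRNPA1 leaned the same way. The A/B type has 6 genes (HNRNPA0, HNRNPA1, HNRNPA1L2, HNRNPA2B1, HNRNPA3 and HNRNPAB), a group formed after their values were seen. All 6 had a log2 fold change above 0 (50.2% of all genes did) and 4 were higher in all 4 pairs (9.93% of all genes). These counts include HNRNPA1 itself. Its relatives higher in all 4 pairs were HNRNPA0, HNRNPA1L2 and HNRNPA3. Reads of HNRNPA1L2 and HNRNPA3 could have come from copies elsewhere in the genome. HNRNPA2B1 turned to -0.079 without control 3. HNRNPAB was barely above 0, at 0.0081, which is less than the shift of -0.028 that scaling to column totals gave to the median of all genes. With HNRNPA1 included, the median log2 fold change of the 6 genes was 0.16. The pair medians were 0.17, 0.15, 0.15 and 0.14 for numbers 1 to 4. None but HNRNPA1 was without overlap, and none passed the adjustment.

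HNRNPA2B1, which binds splicing silencers and sorts RNA for transport, had the highest level of all 41 genes. It read 923, 910, 554 and 851 in controls and 1136, 989, 570 and 801 in hLcn-2 samples. The pair difference was above 0 for numbers 1, 2 and 3 and below 0 for number 4. The log2 fold change of 0.093 was smaller than its standard error of 0.23 without the block, which leaves out the pairing. With the block the standard error was 0.078, and the 95% interval on the log2 scale still crossed 0, from -0.075 to 0.26. HNRNPA1L2, an intronless copy of HNRNPA1, averaged 2.85 ± 0.783 and 3.30 ± 0.914, with between 5 and 41 reads per library. Its whole last 500 nt is shared with a lncRNA on the same strand and has 17 copies of at least 95% identity in the genome, so its reads could have come from elsewhere.

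HNRNPR, a relative of SYNCRIP with several RNA recognition motifs, pointed the other way. It lies at chr1:23303771-23344336 on the minus strand. Controls 1 to 4 read 353, 411, 348 and 436 normalized counts and hLcn-2 samples 1 to 4 read 271, 380, 272 and 357. Each hLcn-2 sample was below its own control, yet hLcn-2 2 and hLcn-2 4 lay above control 1 and control 3, so the groups overlapped. Means were 387 ± 43.4 and 320 ± 56.7. On the log2 scale the difference was -0.28 (standard error 0.15), or 0.821-fold, with a 95% interval from 0.735-fold to 0.918-fold in the fit with the block. Limma gave adjusted p-values of 1.0 without and 0.139 with the block, against 0.0900 in edgeR with the block and 0.0835 in DESeq2 with the block. An exact permutation test, which leaves out the pairing, gave p = 0.171.

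HNRNPK, which binds runs of cytosine, read 736, 672, 556 and 630 in controls and 759, 729, 536 and 623 in hLcn-2 samples. The pairs split evenly, and the log2 fold change was 0.023 (standard error 0.15). HNRNPD, which binds AU-rich elements and takes part in mRNA decay, was lower in all 4 pairs with a log2 fold change of -0.095 (standard error 0.15). Its 95% interval crossed 0 also with the block.

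Of the 4 genes of the F/H type, which bind runs of guanine, HNRNPH3 and HNRNPH2 were higher in all 4 pairs, with log2 fold changes of 0.24 (standard error 0.23) and 0.14 (0.17). HNRNPH1 and HNRNPF had log2 fold changes of -0.00081 and -0.0019. HNRNPC, which covers uridine tracts and hides cryptic exons, lay at 0.029, HNRNPM at 0.025, and HNRNPU, a nuclear scaffold protein, at -0.0059. HNRNPL, which binds CA repeats, lay at 0.087, and its paralog HNRNPLL, known for CD45 splicing in lymphocytes, at 0.24 with a mean of only 10.9 normalized counts. None of these 9 genes passed the adjustment in limma, edgeR or DESeq2 with the block.

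The 3′ ends of some members are not unique. Elsewhere in the genome, the last 500 nt of CLK3, HNRNPA1L2, HNRNPA3, HNRNPH1, HNRNPK, HNRNPL, SRPK1 and SRSF9 have copies of at least 95% identity over at least 75 nt. Genes on the opposite strand overlap 78.2% of the last 500 nt of HNRNPUL1 and 39.2% of that of HNRNPAB. Reads of these members could have been shared with the copies or with the overlapping genes, and their values are uncertain to that extent. For each gene, only the end of the transcript marked as canonical was examined. Transcripts of the members that end elsewhere, also those of SRSF8 and HNRNPA1, were not checked for copies or overlaps.

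SRPK2 was the kinase with the smallest p. It lies at chr7:105110704-105399308 on the minus strand. Controls 1 to 4 read 215, 188, 265 and 178 normalized counts and hLcn-2 samples 1 to 4 read 284, 219, 251 and 231. The hLcn-2 sample was higher in the pairs numbered 1, 2 and 4 and lower in the pair numbered 3. Means were 212 ± 38.8 and 246 ± 28.6, a log2 difference of 0.23 (standard error 0.15), and limma with the block gave an adjusted p of 0.318.

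SRPK1, its paralog and the kinase with the next highest level, read 107, 98.8, 57.1 and 69.8 in controls and 90.2, 87.3, 56.8 and 82.8 in hLcn-2 samples. Its log2 fold change was -0.045 (standard error 0.22). The 4 CLK kinases averaged between 23.9 and 36.9 normalized counts in either group, and their log2 fold changes were -0.023 (CLK1), 0.037 (CLK2), -0.032 (CLK3) and 0.17 (CLK4), all smaller than their standard errors.

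Compared as families, the 3 groups differed little between control and hLcn-2-treated cells. The median log2 fold change was 0.048 over the 14 SR genes, 0.029 over the 21 hnRNP genes and 0.0074 over the 6 kinases, against 0.00083 over all genes tested. In pairs 1 to 4 the SR median was 0.18, 0.15, -0.041 and 0.065. The hnRNP median was 0.12, 0.059, 0.00061 and 0.061 in the same pairs. The kinase median was 0.15, 0.0028, -0.043 and 0.25. The spread over pairs was thus larger than the family medians themselves.

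Summed over its members, the SR family gave 2608, 2582, 2239 and 2625 normalized counts in controls and 2950, 2751, 2236 and 2693 in hLcn-2 samples, with means of 2514 ± 184 and 2657 ± 301. The hnRNP sum was 5647 ± 665 without and 5764 ± 834 with hLcn-2, and the kinase sum was 417 ± 54.0 and 452 ± 39.5. In each family the difference between means was smaller than the SD of the controls. That SD leaves out the pairing, and the samples numbered 3 were the lowest in both groups for the SR and hnRNP sums. Within pairs, the SR sum was higher with hLcn-2 for numbers 1, 2 and 4 and slightly lower for number 3. The hnRNP sum was higher for numbers 1 and 2 and lower for numbers 3 and 4. Without both samples numbered 3, the medians were 0.081 (SR), 0.091 (hnRNP) and 0.070 (kinases).

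**Figure D3:**
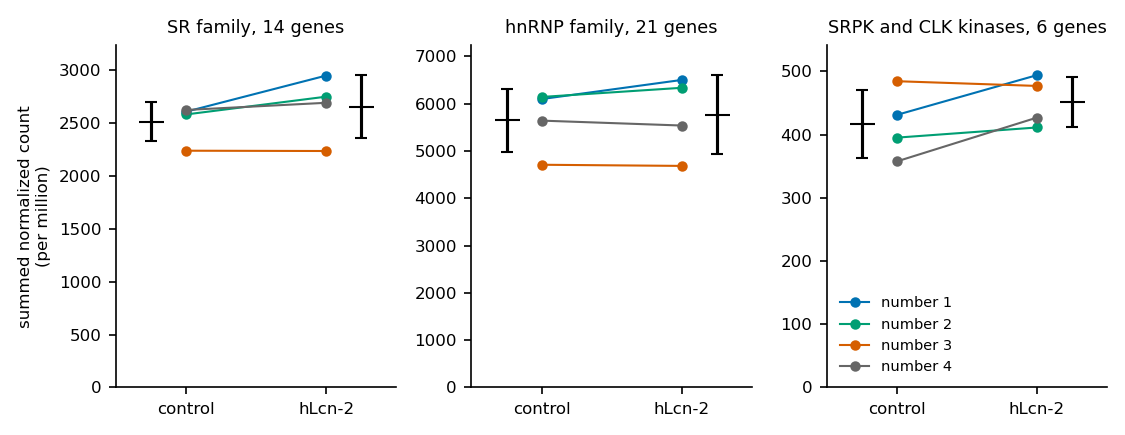
Normalized counts (CPM) summed over the SR genes, the hnRNP genes and the SRPK and CLK kinases in each sample, with lines joining samples of the same number and black bars for the mean and SD (n = 4). Both samples numbered 3 are the lowest for the SR and hnRNP sums, and the groups overlap in all 3 panels.

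Differences between replicate numbers were set beside those between the groups, here and over the whole table. For each gene, the range over the 4 number means was compared with the size of the log2 fold change. The range was the larger one for 39 of 41 genes, the exceptions being SRSF8 and HNRNPA1, and for 14817 of the 15593 genes tested, so the members did not stand out. Its median over members was 0.50 on the log2 scale, beside a median absolute log2 fold change of 0.087. Over all genes tested these medians were 0.57 and 0.14. These are descriptions of different quantities, a range over 4 means and a difference of 2. The range tends to be the larger one even where the numbers have no effect. The comparison therefore cannot show whether numbers or groups differed more.

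Both samples numbered 3 were the 2 lowest of all 8 for 18 of the 41 genes (43.9%), where this held for 15.6% of all genes tested. They included SRSF1, SRSF2, SRSF3, TRA2B, HNRNPA2B1, HNRNPAB, HNRNPC, HNRNPL and SRPK1. HNRNPAB was lowest relative to the other numbers, at 0.501-fold, and read 57 and 52 normalized counts in the samples numbered 3 against 91 to 130 in the others. The opposite held for CLK1, CLK2, CLK4 and SRSF5, whose 2 highest samples were those numbered 3, and 13.7% of all genes shared that pattern. CLK4 read 46.7 in control 3 and 54.3 in hLcn-2 3, against 22 to 29 in the other samples, which is 1.95-fold. CLK1 was 1.71-fold and CLK2 1.48-fold of the other numbers.

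The samples numbered 3 held 5799151 and 2088266 reads and also had the highest share of RNR2 given above. The part of depth or of the RNR2 share in this pattern was not tested. For SRSF8, the sample numbered 3 was the highest of its group in both groups. Without both samples numbered 3, limma with the block gave SRSF8 a log2 fold change of 0.49 and no longer called it (adjusted p = 0.170).

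**Figure D4:**
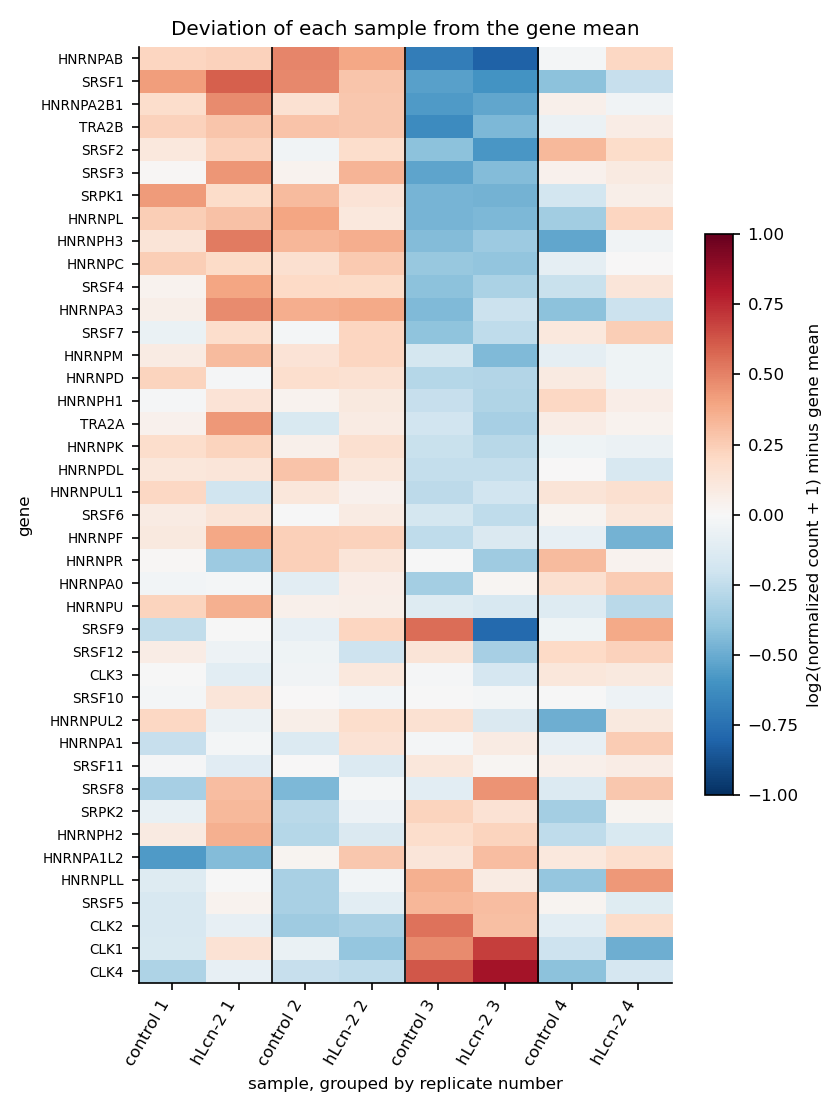
Deviation of each sample from the mean of its gene, on the log2(normalized count + 1) scale, for the 41 genes (rows, ordered by the samples numbered 3) and the 8 samples (columns, grouped by number). Most SR and hnRNP genes are low (blue) in both samples numbered 3, CLK1, CLK2, CLK4 and SRSF5 are high (red) there, and SRSF8 alternates between control and hLcn-2.

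The stretch in front of SRSF8 differs from those of most other members in base composition. RefSeq promoter windows (GRCh38.p14, 250 bases before to 50 after the start) were found for all members but 3, 57 windows in all, and their median GC content was 64.7%, against 58.7% over 35116 windows. The SRSF8 window at chr11:95066669-95066968 (plus strand) had 38.0%. It is shown because SRSF8 carries the one call, with the match to the CCAAT box, which reads on the minus strand, in capitals.
SRSF8 promoter: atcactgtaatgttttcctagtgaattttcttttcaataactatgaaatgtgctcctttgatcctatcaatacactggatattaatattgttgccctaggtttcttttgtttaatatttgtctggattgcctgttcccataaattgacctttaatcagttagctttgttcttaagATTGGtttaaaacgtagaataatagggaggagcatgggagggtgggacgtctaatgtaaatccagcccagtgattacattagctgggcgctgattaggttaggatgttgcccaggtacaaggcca

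Both strands were searched for 3 motifs. CCAAT was found in 23 of the 57 windows (40.4%) and in 34.6% of all windows. TGATGNAA, which the stress factor ATF4 binds together with C/EBP proteins, was in 0 of the 57 windows and in 3.62% of all. TGACNNNGC, the core of the antioxidant response element to which Nrf2 binds, was in 10 windows (17.5%) and in 13.3% of all, and not in that of SRSF8. Several genes have more than 1 window, and some windows overlap, so the windows are not independent.

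SRSF8 shares its lack of introns with HNRNPA0 and HNRNPA1L2, and all 3 were higher in all 4 pairs. Among all protein-coding genes tested, 14.1% of 262 genes with 1 exon and 11.1% of 12284 genes with more exons were higher in all pairs. This grouping was noticed after the values were seen, and HNRNPA1L2 has the limits given above.

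The other parts of the splicing machinery were read from 4 lists with 139 genes tested. Limma called 0 of them without and with the block. At an unadjusted p of 0.05 or less there were 4 genes without the block and 17 with it, or 12.2%, the same share as over all genes. With the block, edgeR called 1 of the 139 genes, where it called 1.49% of all genes. DESeq2 with the block called 2 of the 139, where it called 1.11% of all genes. The medians of the log2 fold change were 0.0073 for 50 splicing regulators of other families (27 above 0), -0.017 for 62 core spliceosome genes (27 above 0), 0.052 for 12 genes of SR phosphorylation and nuclear import (7 above 0) and -0.0029 for 15 genes of nonsense-mediated decay and the exon junction complex (7 above 0).

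MAGOH, a core protein of the exon junction complex that splicing deposits on mRNA, was called with the block by edgeR (adjusted p = 0.0254) and DESeq2 (0.0138), but not by limma (0.124). It read 130, 132, 249 and 129 normalized counts in controls and 195, 259, 232 and 204 in hLcn-2 samples. The pair numbered 3 went the other way, and the log2 fold change of 0.52 (standard error 0.21) became 0.73 without it. EdgeR with the block lost the call without the samples numbered 1, 2 or 4 (adjusted p = 0.0609, 0.282 and 0.0720). Its partner RBM8A lay at 0.21 (standard error 0.13) on the log2 scale, and UPF3B, which links the complex to decay, lay at -0.33 (0.18) and was lower in all 4 pairs. UPF3B had an adjusted p of 0.132 in limma with the block.

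PRPF4B, a spliceosomal kinase that phosphorylates SR proteins and PRPF proteins, was the other gene that DESeq2 with the block called (adjusted p = 0.0422). It read 230, 202, 214 and 205 in controls and 174, 154, 175 and 176 in hLcn-2 samples. All hLcn-2 samples were below all controls, and the log2 fold change was -0.32 (standard error 0.11). EdgeR with the block gave it an adjusted p of 0.0506 and limma with the block 0.0998.

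PRPF39, a protein of the early spliceosome, showed the same lack of overlap, with 43.2, 48.5, 45.5 and 41.5 in controls and 35.7, 34.7, 34.6 and 31.3 in hLcn-2 samples. Its log2 fold change was -0.38 (standard error 0.13) and its adjusted p 0.148 in limma with the block. RBM3, a cold-inducible RNA-binding protein, was higher without overlap, at 308 ± 35.4 without and 375 ± 20.5 with hLcn-2. The log2 difference of RBM3 was 0.29 (standard error 0.12), and limma with the block adjusted its p to 0.191. Over the 4 lists, 1 of 139 genes was higher without overlap (0.719%), against 0.891% of all genes tested. Another 2 were lower without overlap (1.44%), against 0.988% of all genes tested. The other genes with the smallest p of their lists had log2 fold changes of -0.28 (the helicase DDX46), -0.34 (PRPF3 of the tri-snRNP), -0.27 (PNN), 0.28 (RBM10), 0.22 (PPP1R10, a regulator of protein phosphatase 1) and -0.17 (the import receptor TNPO2). None of these 6 genes passed the adjustment in limma, edgeR or DESeq2 with the block.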

How the data were processed

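The authors attached the UMI to the read names, aligned reads to GRCh38 with STAR, collapsed them by UMI, counted them per gene with HTSeq and removed genes without counts. The deposited values are a signal, normalized counts as CPM, with library sizes that carry a scaling factor. All 134256 values were whole multiples of the worth of 1 read (within 0.01). One cell with a decimal comma was read as a decimal point. Genes that reached 1 CPM in 2 or more samples entered limma 3.58.1 (R 4.3.3), with an intensity trend, as log2(normalized count + 1). Models with the replicate number as a block, edgeR 4.0.16 and DESeq2 1.42.0 (on recovered reads) were alternatives. Standard errors of members are from limma without the block unless the block is named. The pairing comes from the numbers in the titles, and was checked by the correlations of same-numbered samples (mean 0.50, all above 0.1, against -0.46 to 0.23 between different numbers). Without the block, p-values measure the spread between these samples, and with it the spread of the differences within same-numbered pairs. As the labels do not name separate cultures, either spread may be technical.

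Members and lists were chosen with earlier results of these data known. Values in every sample are given for members called, the 5 smallest p without the block and the 2 highest levels of each family. From each list, genes called and the 3 smallest p are named. PCBP1, ESRP1, U2AF1, XAB2 and a second MATR3 entry were not analysed here. Exon overlaps and copies of the last 500 nt of the canonical transcript of each gene were read from GENCODE 44 and GRCh38. Limma, edgeR and DESeq2, each with and without the block, were run on simulated counts with known changes. Each simulated gene had its own pair effect. Samples that shift many genes together, as those numbered 3 did here, were not simulated, so the run cannot show how the models handle them.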

Additional observations from a re-analysis of the deposited data

Results flagged for a closer look

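Of 112 groups of 4 samples examined by the gap of an extreme sample to its nearest neighbour (Dixon's criterion), 16 had such a sample, where chance gives about 1 in 20 groups, or 5.6. The groups read the same 8 samples for genes whose levels moved together, and some are sums over these genes. They are not independent, so 16 beside 5.6 is a description and not a test. Of the 16 extreme samples, 11 were numbered 3. Highest of their group among these were CLK1 in control 3 (49.2 normalized counts), CLK4 in control 3 (46.7) and in hLcn-2 3 (54.3), and MAGOH in control 3 (249). Lowest of their group were SRSF3 in control 3 (217), UPF3B in control 3 (76.7), the SR family sum in control 3 (2239), and SRSF2 (206), SRSF6 (92.8), SRSF7 (228) and HNRNPH1 (370.3) in hLcn-2 3.

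The other 5 were HNRNPA1L2 in control 1 (1.69, lowest), TNPO2 in control 2 (49.1, lowest), PPP1R10 in hLcn-2 1 (165, highest), PRPF3 in hLcn-2 2 (31.0, highest) and PRPF4B in hLcn-2 2 (154, lowest). None was an SRSF8, HNRNPA1, HNRNPR or SRPK2 value.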

How the results depend on the processing

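The number of genes called moved most with the pairing. It was 0 without the replicate block in limma, edgeR and DESeq2, and with the block 44 in limma, 233 in edgeR and 173 in DESeq2. Limma with the block called 8 with a pseudocount of 0.1, 45 with a pseudocount of 5, 85 among genes with a mean of at least 10 CPM and 0 without intensity trend. Leaving out pair 1, 2, 3 or 4 gave 14, 3, 0 and 58 genes in limma and 66, 56, 125 and 221 in edgeR, the latter chosen after seeing the data. Of the 41 members, SRSF8 was called with the block in limma, edgeR, DESeq2, at a pseudocount of 5 and at the mean of 10 (1 gene each), and 0 to 1 were called without 1 pair. SRSF8 kept its direction under all 32 alternatives, with log2 fold changes between 0.44 and 0.60. Of the 139 list genes, 1 was called by edgeR and 2 by DESeq2 with the block, against 1.49% and 1.11% of all genes.

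Without 1 sample, the hnRNP median ran from -0.051 (without control 3) to 0.12 (without hLcn-2 3), the SR median from -0.0095 to 0.21 and the kinase median from -0.020 to 0.18. With the block and without 1 pair, the hnRNP median ran from 0.0069 to 0.091. HNRNPK reversed to -0.0084 when columns were scaled to their own totals, and to -0.0078 with the block without pair 2, and SRPK1 to 0.020 with the block without pair 1. Without 1 sample, HNRNPA2B1 ran from -0.079 (without control 3) to 0.28, HNRNPK from -0.048 to 0.12 and SRPK1 from -0.21 to 0.11. The cause was not tested. The block changed no other member's call. Genes with few reads, such as SRSF9 and HNRNPA1L2, were limited by depth, since 3 reads were worth 1.98 CPM in control 4.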
